A study of Homo sapiens with 2 samples.

Results

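The cytosines described here lie outside every annotated gene. They were taken from the RNA bisulfite sequencing of 2 established breast cell lines as nuclear sites with a coverage of at least 10 read counts that fell in no gene span of the GENCODE annotation of GRCh37, on either strand. MCF10A, a nontumorigenic mammary epithelial line, held 4764 such sites among 1645163 nuclear sites of that coverage, and MDA-MB-468, a breast cancer line labelled only as cancer, held 11989 among 1517864. The labels name DMEM for both lines, while the study's methods give DMEM/F12 with horse serum, EGF, hydrocortisone and insulin for MCF10A and RPMI for MDA-MB-468, so the lines may also differ in medium. No treatment is named. RNA was selected for poly(A) tails and treated with bisulfite at 60 degrees for 8 hours, and each line is represented by 1 library. There are no replicates, so every difference between the lines below is a difference between these libraries. A site within 5000 nt downstream of a gene end on its own strand was called downstream, and any other gene-free site was called remote. Downstream sites numbered 2372 in MCF10A versus 6990 in MDA-MB-468, and remote sites numbered 2392 and 4999.

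The whole files held 76098976 read counts over 3146911 cytosines in MCF10A and 90960018 over 3489803 in MDA-MB-468. As a check of the labels, exons of EPCAM and CDH1, which encode epithelial adhesion proteins, had no site with a coverage of at least 10 in MCF10A, whereas the mesenchymal filament gene VIM had 486 sites with a mean coverage of 699. In MDA-MB-468, EPCAM had 175 sites with a mean coverage of 33.3, CDH1 had 108 and VIM had none. The epithelial keratins KRT8, KRT18 and KRT17 had 234, 105 and 241 sites in MCF10A, where MDA-MB-468 had 258, 250 and 293. Their mean coverages were 45.7, 45.1 and 38.7 in MCF10A versus 343, 213 and 289 in MDA-MB-468. The epithelial markers therefore did not all go the same way in MCF10A. KRT5, a basal keratin, and the growth factor receptor gene EGFR were covered in both lines, and KRT14, the estrogen receptor gene ESR1, and the immune and endothelial markers PTPRC, CD3E and PECAM1 were covered in neither. COL1A1, a fibroblast collagen, had 267 sites with a mean coverage of 15.7 in MDA-MB-468 and none in MCF10A.

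Bisulfite converts cytosine to uracil and leaves 5-methylcytosine (m5C) unchanged, so a read that still shows C is counted as unconverted. The methylation ratio of a site is its unconverted share of the coverage, and the nonconversion rate of a class is the same share pooled over its sites. Strong RNA structure and reads placed at the wrong copy of a sequence also leave C in reads, and neither can be told apart from m5C in these tables. RNA polymerase II transcribes beyond the cleavage site of a gene, and the RNA behind that site is normally degraded without a tail of its own. Ribosomal RNA comes from repeated units in which 18S, 5.8S and 28S follow each other. Most of these units are missing from the assembled chromosomes, although fragments of them are scattered there outside genes.

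The gene-free cytosines were joined into 833 intervals over both lines, each a run of sites on a strand with gaps of at most 100 nt and a median length of 36 nt. An alignment of the interval sequences divided them. A ribosomal RNA unit on an unplaced scaffold of GRCh37 matched 48 intervals on the same strand, with identities from 83.1% to 99.5%. Another 87 intervals matched an annotated transcript elsewhere with at least 90% identity, and the other 698 matched neither and are called the remaining intervals. This division used sequence only.

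The sequences below carry the patterns described in the rest of the text. Coordinates are those of GRCh37, sequences are written 5′ to 3′ on the strand of the site, and capitals mark the cytosine or cytosines in question. The first group shows ribosomal sites with called m5C. They are a site of the interval behind MIR3687 with a large difference between the lines (chr21:9826857, plus strand), a site of the deep end of the same interval (chr21:9827326, plus strand), a site called in both lines on chromosome 5 (chr5:71146921, plus strand), a site near RNA5-8SP4 (chr19:24184940, minus strand) and the run on chromosome X (chrX:108297810-108297839, plus strand), where capitals mark the cytosines unconverted in at least 50% of the reads of both lines.
chromosome 21, position 9826857: ccgccgcccccgcgCccgctcgctccctc
chromosome 21, position 9827326: ggctgatcgcacgcCccccgtggcggcga
chromosome 5, position 71146921: ggcccttgaaaatcCgggggagagggtgt
chromosome 19, position 24184940: gatgcgctggctggCtgaggcgggatcct
chromosome X run: ctggcgccaagCgCCCggCCgcacgcaaaa

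The second group shows remaining intervals in which most cytosines were either unconverted in nearly every read or converted in nearly every read, and capitals mark those unconverted in at least 50% of the reads of each line that covered them. They are chr1:100279287-100279306 (plus strand), chr9:83704941-83704970 (minus strand), chr3:84345120-84345134 (minus strand), chr11:56300530-56300541 (plus strand) and chr1:186960284-186960313 (plus strand, behind PLA2G4A). None of these stretches holds a G.
chromosome 1 interval: CtCtCCtCaaaaCtCtCCtC
chromosome 9 interval: CCttctcttttctCactCccactttttctt
chromosome 3 interval: CaaataattCaattC
chromosome 11 interval: CtCtaCaaaaac
PLA2G4A flank: tttcctttcccCttCtctttaCctcCttaa

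Ribosomal RNA sequence made up most of the gene-free reads. In MCF10A the intervals like the ribosomal unit held 1294 of the 4764 sites (27.2%), 97.2% of the read counts and 247 of the 363 called m5C sites. In MDA-MB-468 they held 1600 of the 11989 sites (13.3%), 99.0% of the read counts and 291 of the 518 calls. A site was called m5C where its unconverted reads exceeded the pooled exonic and mitochondrial rate by Fisher's exact test, taken one-sided, at a false discovery rate of 0.05 over all sites. The remaining intervals held 2952 sites with 47674 read counts in MCF10A and 9797 sites with 161208 in MDA-MB-468, so that they gave most of the positions and few of the reads. Intervals like a transcript held 518 and 592 sites. The median coverage of a site was 140 in MCF10A versus 421.5 in MDA-MB-468 on ribosomal intervals, against 13 in each line on the remaining ones.

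**Figure D1:**
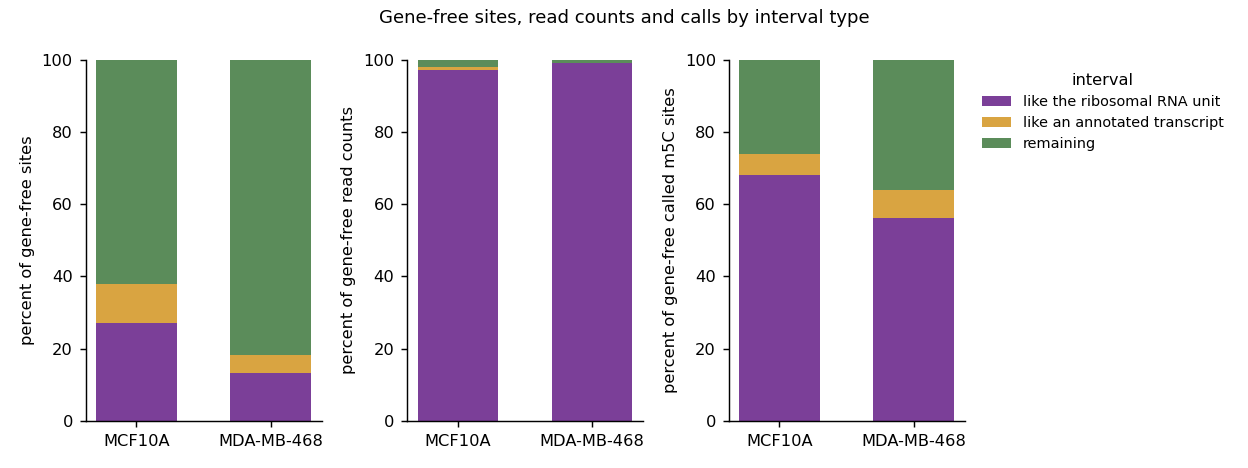
The bars divide the gene-free sites, their read counts and their called m5C sites (percent of each) in the 2 libraries by the kind of interval. Intervals like the ribosomal RNA unit held 97.2% of the read counts in MCF10A versus 99.0% in MDA-MB-468, but 27.2% and 13.3% of the sites.

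Few intervals carried the reads. The 10 largest intervals of each line held 93.4% of the gene-free read counts in MCF10A versus 96.7% in MDA-MB-468, and the largest alone held 36.7% and 49.6%. Gene-free sites held 3.39% of all nuclear read counts in MCF10A versus 23.7% in MDA-MB-468. On ribosomal intervals the sum was 2175243 in MCF10A versus 18299236 in MDA-MB-468. All 34 ribosomal intervals covered in MCF10A were also covered in MDA-MB-468, where they were 70.8% of 48. Of the 48 intervals, 12 matched the unit on the 5′ side of the start of 5.8S, the side of 18S. Another 35 matched on the 3′ side, the side of 28S, and the rest crossed that start. Only the side was read from these offsets, and whether a match falls within 18S or 28S or outside them was not assigned.

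Pooled nonconversion of ribosomal sites differed between the downstream and remote classes. Exonic sites had a nonconversion rate of 1.94% in MCF10A (95% Wilson interval 1.94 to 1.95) versus 1.77% in MDA-MB-468 (1.76 to 1.77). Wilson intervals here cover counting error only, since reads are not independent molecules and sites are not independent of their neighbours. Downstream ribosomal sites had 2.14% (2.11 to 2.16) and 1.49% (1.48 to 1.50), and remote ribosomal sites had 2.71% (2.67 to 2.74) and 2.29% (2.28 to 2.31). Pooled over sites, downstream ribosomal sites therefore lay above the exonic rate in MCF10A and below it in MDA-MB-468, and remote ones lay above it in both lines. The remote class had 21417 unconverted reads among 791423 counts in MCF10A, and 95716 among 4176914 in MDA-MB-468. It includes 1 interval of 18 sites on chromosome X, with 23.3% of 35732 and 21.4% of 163080 counts unconverted. The remote rate without that interval was not computed, and other remote ribosomal intervals lay on both sides of the exonic rate.

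Called sites were common on ribosomal intervals. Over every site tested, 1.08% of sites were called in MCF10A versus 0.926% in MDA-MB-468. Among ribosomal gene-free sites 19.1% were called in MCF10A (17.0 to 21.3) versus 18.2% in MDA-MB-468 (16.4 to 20.2). Coverage moved with these shares, since the lowest ratio at which a site was called fell with depth. Among sites with 10 counts, none was called with fewer than 4 unconverted reads in either line. Among sites with 1000 counts, the lowest called number was 64 for MCF10A versus 45 for MDA-MB-468. These are observed numbers and not the limit of the test. In MDA-MB-468, 24 of 563 reads were enough for a call at position 9826857 of chromosome 21. The part of coverage in the higher share of calls was not tested. Called ribosomal sites had a median predicted pairing probability of 0.852 in MCF10A versus 0.849 in MDA-MB-468, against 0.657 in each line over all ribosomal sites. They also came in runs, with another called site within 10 nt for 95.1% of them in MCF10A versus 93.1% in MDA-MB-468.

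The interval behind the small RNA genes MIR3648 and MIR3687 was the largest of both lines. It spans chr21:9826012-9827574 on the plus strand and matched the ribosomal unit with 99.0% identity, from position -3956 to -2370 nt relative to the start of 5.8S. It held 586 sites with 821088 read counts in MCF10A and 587 sites with 9167711 in MDA-MB-468. Its nonconversion rate was 2.62% in MCF10A versus 1.76% in MDA-MB-468, and 160 and 163 of its sites were called, more than in any other interval of either line.

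Nonconversion differed along this interval, and did not follow coverage in every part. Within 200 nt of its start the rate was 1.37% and 1.05%, at a median coverage of 329 and 1453, whereas from 1001 to 1200 nt it was 6.78% and 4.28%, at 351 and 4764. From 201 to 400 nt the rate was 14.8% in MCF10A versus 12.6% in MDA-MB-468, at a median coverage of 60 and 280. From 1201 to 1400 nt the rate was 2.04% and 1.64%, at a median coverage of 5506 and 55570. The highest ratio of any site was 62.7% in MCF10A versus 53.1% in MDA-MB-468, both in the part from 201 to 400 nt. At position 9827199 the ratio was 21.4% in MCF10A (757 of 3531 reads) versus 12.8% in MDA-MB-468 (5509 of 43089).

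**Figure D2:**
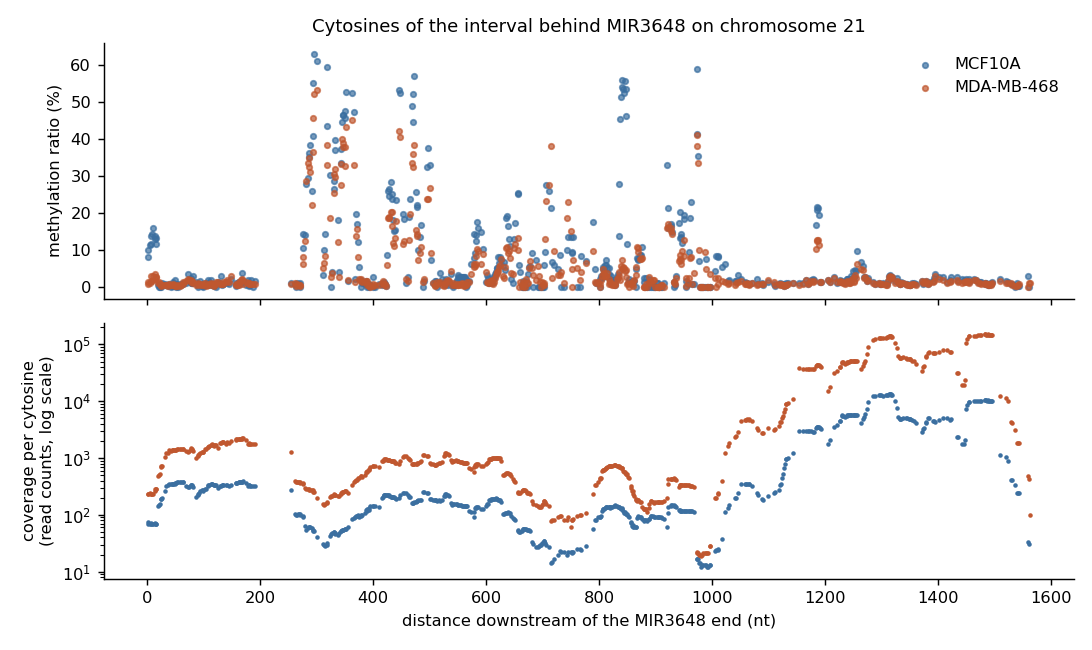
The upper panel plots the methylation ratio (percent) of each cytosine of the interval against its distance (nt) from the end of MIR3648, and the lower panel plots coverage (read counts, log scale), with MCF10A in blue and MDA-MB-468 in red. Ratios over 50% lie between 201 and 1000 nt in MCF10A and between 201 and 400 nt in MDA-MB-468, and coverage is highest beyond 1200 nt.

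A group of neighbouring cytosines of the same interval had the largest differences between the libraries among called sites with a coverage of at least 20 in each. Position 9826857 was unconverted in 61 of 110 reads in MCF10A (55.5%, 46.1 to 64.4) and in 24 of 563 in MDA-MB-468 (4.26%, 2.88 to 6.26). The other 5 of the 6 largest differences lay between positions 9826851 and 9826858, with ratios from 52.3% to 55.8% in MCF10A and from 4.56% to 7.19% in MDA-MB-468. They lie within 8 nt of each other, so the same reads cover them.

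The ribosomal interval on chromosome X held a run of high ratios at large coverage. It spans chrX:108297793-108297835 on the plus strand, on the 28S side from 5404 to 5466 nt after the start of 5.8S. From position 108297803 to 108297817 the ratios ran from 0.703% to 2.04% in MCF10A and from 0.570% to 1.38% in MDA-MB-468. At position 108297821 the ratio was 63.1% in MCF10A (1303 of 2066) versus 60.9% in MDA-MB-468 (5745 of 9428). At position 108297824 it was 93.7% in MCF10A (1529 of 1632) versus 91.0% in MDA-MB-468 (6518 of 7164). The cytosine at 108297831 was back at 0% of 208 reads in MCF10A versus 1.94% of 977 in MDA-MB-468. The change from low to high and back happened within the same stretch in both libraries, and coverage fell along it from 4873 to 10 in MCF10A and from 22826 to 76 in MDA-MB-468.

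Other ribosomal intervals had rates on both sides of the exonic rate. The interval chr5:71146740-71146942 held the most read counts of the remote intervals, 505442 in MCF10A versus 2727061 in MDA-MB-468, with a nonconversion rate of 1.78% and 1.62%. Its site 71146921 was called in both lines at 4.29% of 15933 reads in MCF10A versus 4.09% of 93096 in MDA-MB-468. The interval chr4:70296663-70296729 on the minus strand had 1.35% of 167317 counts in MCF10A versus 1.03% of 854040 in MDA-MB-468, with no called site in either line. The interval chr12:34372609-34372672 on the minus strand likewise had no call, at 1.16% of 20003 and 1.06% of 88726. The interval chr5:122990787-122990845 had 2.41% of 39229 counts with 7 calls in MCF10A and 1.88% of 222786 with 8 calls in MDA-MB-468, and chr21:9825457-9825831, just before MIR3648, had 3.16% of 16118 with 18 calls and 2.67% of 68779 with 27 calls.

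The flanking genes with the most downstream reads had ribosomal fragments behind them. In both lines the 6 leading flanking genes were MIR3687, AC136932.1, the long noncoding gene ENSG00000230803, the 5.8S pseudogene RNA5-8SP4, MIR3648 and VAV3. VAV3, which encodes a guanine nucleotide exchange factor, had no exonic site with a coverage of at least 10 in MCF10A, although the interval behind it had 7173 read counts there and 34007 in MDA-MB-468. The interval behind AC136932.1 (chr16:33962844-33963756) had a nonconversion rate of 1.06% in MCF10A versus 0.747% in MDA-MB-468. Behind RNA5-8SP4, position 24184940 stood at 92.2% of 128 reads in MCF10A versus 87.5% of 1002 in MDA-MB-468, while the interval around it had 1.46% and 1.27%. The seventh and eighth genes were ENSG00000288899 and ENSG00000260604 in MCF10A, and ACTB and JUND in MDA-MB-468.

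Intervals like an annotated transcript had nonconversion rates of 3.17% in MCF10A (2.89 to 3.47) versus 4.87% in MDA-MB-468 (4.54 to 5.22). They held 21 calls (4.05% of their sites) in MCF10A versus 40 (6.76%) in MDA-MB-468, against 1.08% and 0.926% over every site tested. Of the 257 such sites covered in both lines, the MCF10A library had 18 calls, the MDA-MB-468 library had 7, and no site had both. An overlap of 0 among so few calls is not a result about these intervals. An interval like CHCHD2, which encodes a mitochondrial regulator, gave 15 of the 21 calls of MCF10A, at 36.3% of 240 counts, while in MDA-MB-468 it had no call at 7.07% of 622. An interval like ANXA2, which encodes a phospholipid-binding annexin, had 6.81% of 1306 counts in MCF10A versus 14.8% of 176 in MDA-MB-468. The interval with the most counts, like NME2, a nucleoside diphosphate kinase gene, was covered in MCF10A only, at 3.15% of 2476. Reads of these genes and of the gene-free copies cannot be told apart by the position they were given.

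The remaining downstream sites had rates on either side of the exonic rate. In MCF10A 1251 sites had a nonconversion rate of 1.50% (1.34 to 1.68) against 1.94% in exons, and 1 of them was called, 0.0799%. In MDA-MB-468 5591 sites had 2.12% (2.03 to 2.22) against 1.77% in exons, and 38 were called, 0.680%. The position above the exonic rate in MDA-MB-468 rested on 1 interval of 11 sites, which held 484 of the 1833 unconverted reads, and without it the rate was 1.61% (1.52 to 1.69) with 28 calls. That interval also held 484 of the 536 unconverted reads behind small RNA and other genes there, where 318 sites had 8.58%. Without the 3 intervals that held a site of at least 90%, the rate of the remaining downstream sites there was 1.96% (1.87 to 2.06). Both shares of calls lay below the 1.08% and 0.926% over all sites. Median coverage was 13 in both lines, where a call needs about 4 unconverted reads, so a site with a low ratio was not detectable as m5C at this depth. Over chromosomes with at least 20 such sites, the rate ran from 0.631% to 1.98% with a median of 1.42% over 12 chromosomes in MCF10A and from 0.521% to 14.5% with a median of 1.23% over 19 in MDA-MB-468. The 14.5% was that of chromosome 2, where the interval of 11 sites lies. The rate was above the exonic rate of the same chromosome on 1 of 12 chromosomes in MCF10A and on 6 of 19 in MDA-MB-468.

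**Figure D3:**
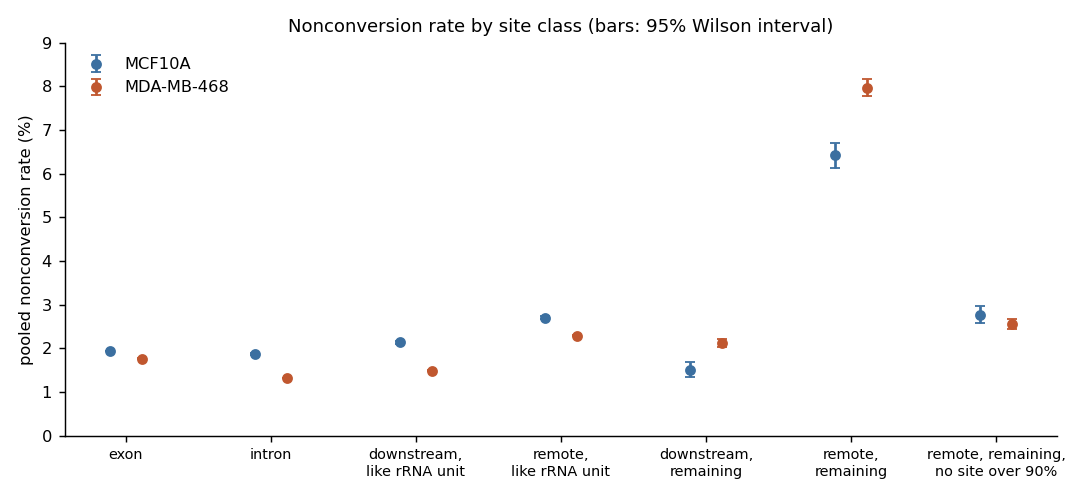
Points give the pooled nonconversion rate (percent) of each class in MCF10A (blue) and MDA-MB-468 (orange), and bars give the 95% Wilson interval, which covers counting error only. Remaining remote sites stand at 6.42% and 7.97%, and at 2.77% and 2.55% once intervals holding a site of at least 90% are left out.

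Remaining downstream sites lay behind different kinds of gene in the libraries. In MCF10A 69.5% of them followed long noncoding genes (870 sites behind 13 genes) and 29.4% followed protein-coding genes (368 sites behind 27 genes). In MDA-MB-468 77.4% followed protein-coding genes (4325 sites behind 126 genes). The libraries shared 5 of these protein-coding genes, which are 18.5% of the 27 and 3.97% of the 126, namely AQR, DDRGK1, LMNB2, MICALL1 and TAF1B. Behind protein-coding genes the nonconversion rate was 1.40% (1.11 to 1.77) in MCF10A with no called site among 368, and 1.50% (1.41 to 1.60) in MDA-MB-468 with 11 called among 4325. The 11 calls lay behind PLA2G4A with 7, ACTB with 3 and NECAB3 with 1.

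ACTB, the gene of cytoplasmic beta-actin, had the most read counts at remaining sites behind a protein-coding gene in MDA-MB-468. Its flank held 394 remaining sites from 10 to 5000 nt, with 8929 read counts, and none in MCF10A, although exons of ACTB had a mean coverage of 202 in MCF10A versus 131 in MDA-MB-468. Over all its downstream sites the mean coverage of a cytosine was 22.2, or 16.9% of that of its exons. JUND, a transcription factor of the AP-1 family, had 255 sites to 4706 nt at a mean coverage of 18.6, or 21.5% of its exons, with 1.10% unconverted. EGR1, an immediate-early transcription factor, had 140 sites at a mean coverage of 16.3, or 34.9% of its exons, with 0.962% unconverted. IER2, another immediate-early gene, had 101 sites at a mean coverage of 15.6, or 7.05% of its exons, with 1.08% unconverted. JUND, EGR1 and IER2 had exonic sites in MCF10A, with mean coverages of 52.3, 39.3 and 39.8, and no gene-free site behind them there.

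Further flanks of MDA-MB-468 showed the same low rates. SMG5, a factor of nonsense-mediated decay, had 112 sites from 2 to 991 nt with 1.18% unconverted, LY6E, a GPI-anchored surface protein gene, had 262 sites with 0.856%, and MYEOV had 146 sites with 0.919%. RECQL4, a DNA helicase gene, had 224 sites from 2382 to 4113 nt with 1.65%. The long noncoding gene UCA1 had 160 sites to 2580 nt with 1.57% unconverted, at a mean coverage that was 112% of that of its exons. None of the 5 flanks had a called site. Ratios of this kind compare cytosines with a coverage of at least 10 only, so they overstate a flank whose other cytosines fell below that limit.

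The median flank of a protein-coding gene held 10 remaining sites and reached 991 nt in MCF10A, against 14.5 sites and 1260 nt in MDA-MB-468. In MCF10A TGFBI, an extracellular matrix gene, had 53 sites from 26 to 384 nt at a mean coverage of 12.8, or 1.43% of that of its exons, with 0.740% unconverted. FN1, the fibronectin gene, had 27 sites from 197 to 456 nt at a mean coverage of 18.5, or 0.853% of its exons, with 2.60% unconverted. SLC37A2 had 40 sites to 2181 nt with 1.39% unconverted and SDHC, a succinate dehydrogenase subunit gene, had 30 sites to 991 nt with 1.09%. Of the long noncoding genes, ENSG00000288899 had 233 sites with 1.80% unconverted in MCF10A and 211 with 1.29% in MDA-MB-468. ENSG00000222022, ENSG00000222032 and ENSG00000260604 had 161, 130 and 141 sites in MCF10A and none in MDA-MB-468.

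Of 20149 protein-coding genes, 0.134% had a remaining flank site in MCF10A, against 0.625% in MDA-MB-468. Of 86 cytosolic ribosomal protein genes, RPL3 and RPL8 had 14 sites in MDA-MB-468 with 1 unconverted read among 163. Of 50 keratin genes, KRT17, KRT18, KRT19 and KRT23 had 101 sites in MDA-MB-468 with 1.69% of 1593 counts unconverted. Of 21 S100 genes, S100A16 had 10 sites in MCF10A with 2 unconverted reads among 102. None of 76 heat shock genes had a flanking site in either line, and no site of these families was called. Over all protein-coding flanks of MDA-MB-468 0.254% of the sites were called, so that a count of 0 among so few sites is not a result about these families.

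The number of sites changed with distance from the gene. Behind protein-coding genes of MDA-MB-468 there were 2014 sites per 1000 nt of flank, summed over genes, within 500 nt of the end and 2058 from 501 to 1000 nt, followed by 976, 697, 277 and 339 in each further 1000 nt. In MCF10A the same numbers were 342, 142, 42, 50, 4 and 30. Behind all genes of MCF10A, where long noncoding genes hold most sites, they were 580, 370, 103, 176, 198 and 299, so that they rose again beyond 2000 nt. The nonconversion rate did not follow that order. In MDA-MB-468 it was 1.18% within 500 nt, 1.15% from 501 to 1000 nt, 2.75% from 2001 to 3000 nt and 1.43% from 4001 to 5000 nt. The 2001 to 3000 nt part holds the PLA2G4A interval, which lies 2161 to 2202 nt behind the gene with 41.1% of 219 counts unconverted. Just inside the limit of 5000 nt, from 4001 to 5000 nt behind any gene, 299 remaining sites of MCF10A had 1.36% and 629 of MDA-MB-468 had 1.46%, and just outside it, from 5001 to 6000 nt, 77 sites had 3.08% and 375 had 2.61%. At the coverage limit, 641 gene-free sites of MCF10A had exactly 10 counts with 4.15% unconverted and 756 had 9 counts with 3.48%. In MDA-MB-468 there were 2174 and 3060 such sites, with 2.04% and 2.27%.

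The remaining remote sites had the highest pooled rate of the gene-free classes. It was 6.42% (6.14 to 6.71) over 1701 sites in MCF10A and 7.97% (7.77 to 8.16) over 4206 sites in MDA-MB-468, with 94 (5.53%) and 149 (3.54%) sites called. The median site was fully converted, and 71.4% and 76.8% of the sites had no unconverted read. The reads came from few positions, as 50 sites in MCF10A versus 100 in MDA-MB-468 had a ratio of at least 90%. Without the intervals that held such a site in either line, which were 11 in MCF10A versus 23 in MDA-MB-468, the rate was 2.77% (2.58 to 2.98) and 2.55% (2.43 to 2.67). This left 39 called sites among 1613 in MCF10A (2.42%) and 37 among 4057 in MDA-MB-468 (0.912%). Over every site tested, 1.08% and 0.926% were called, so the share left in MDA-MB-468 was near that of all sites.

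Intervals with a site of at least 90% were short, and most of their positions were either converted or unconverted. Over both lines and both classes there were 30 of them, with a median length of 22 nt and none longer than 51 nt. In the 11 remote ones of MCF10A 50 sites had a ratio of at least 90%, 33 had at most 10% and 5 lay between. In the 23 of MDA-MB-468 100 sites had at least 90%, 37 had at most 10% and 12 lay between. Of the 30, 7 were covered in both lines, and 2 of these 7 lie on chromosome Y, where the 15 remaining sites of each line had a rate of 80.5% in MCF10A versus 78.8% in MDA-MB-468. Exons of chromosome Y had 59 sites in MCF10A versus 98 in MDA-MB-468, and whether the reads placed there come from that chromosome was not tested. The 7 intervals shared 52 positions, of which 34 were at 90% or above in both lines and 14 were at 10% or below in both. None was at 90% or above in one line and at 10% or below in the other. Remaining sites of at least 90% had a median predicted pairing probability of 0.235 in MCF10A versus 0.168 in MDA-MB-468, against 0.630 and 0.641 over all remaining sites.

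The interval chr9:83704922-83704972 on the minus strand shows this pattern. Positions 83704938 and 83704939 were unconverted in 36 of 36 reads in MCF10A and in 53 of 53 in MDA-MB-468. Position 83704943 was unconverted in 0 of 36 and 0 of 53. Its neighbours at 83704949, 83704951 and 83704952 were also at 0 in both lines, and 83704953 was at 100%. On chr1:100279287-100279306 all cytosines but 1 were at 100% in MCF10A and between 97.1% and 100% in MDA-MB-468, with 22 and 95 reads at the first. The exception was 100279304, at 12 of 22 and 60 of 95. The order of high and low positions along each interval was the same in both libraries.

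**Figure D4:**
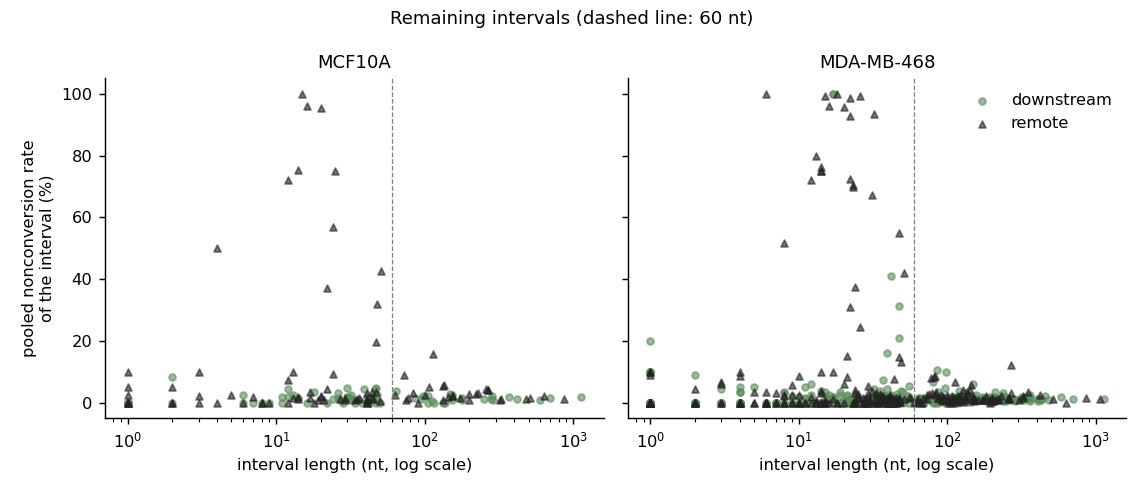
Each point is a remaining interval, placed by its length (nt, log scale) and its pooled nonconversion rate (percent), for MCF10A on the left and MDA-MB-468 on the right; circles are downstream and triangles remote. All intervals at 20% or above are at most 60 nt long, and 11 of 111 intervals of that length in MCF10A versus 30 of 380 in MDA-MB-468 reach it.

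Length and base composition moved with the rate. Remaining intervals of at most 60 nt had a nonconversion rate of 11.2% (10.6 to 11.8) in MCF10A versus 12.6% (12.3 to 12.9) in MDA-MB-468. The split by class differed, since downstream intervals of this length had 1.81% in MCF10A versus 4.93% in MDA-MB-468, and remote ones had 16.6% and 17.4%. In MDA-MB-468 the downstream value included 484 of 903 unconverted reads from 1 interval of 11 sites. From 61 to 200 nt the rate was 2.48% and 1.74%, and beyond 200 nt it was 1.93% and 1.46%. The median interval of at most 60 nt stood at 1.35% in MCF10A versus 0.599% in MDA-MB-468, so that the higher pooled rate came from some of these intervals. Of the 30 intervals with a site of at least 90%, 29 held no G between their ends, against 115 of the other 433 remaining intervals of at most 60 nt (26.6%), whose median length was 19 nt. Remaining sites with no G within 10 nt on either side had a nonconversion rate of 51.9% over 80 sites in MCF10A and 51.3% over 172 in MDA-MB-468. The other remaining sites had 2.56% over 2872 and 3.06% over 9625. In exons, sites with no G within 10 nt had 2.69% in MCF10A (4401 sites) versus 4.46% in MDA-MB-468 (2851 sites), against 1.94% and 1.76% for the others. The part of base composition in the high ratios was not tested.

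Remote intervals of 61 to 200 nt had a rate of 3.22% in MCF10A, with 14 calls (2.61% of sites), and of 1.94% in MDA-MB-468, and those beyond 200 nt had 2.33%, with 14 calls (1.93%), and 1.83%. The remote interval with the most counts in MCF10A that was like neither the ribosomal unit nor a transcript, chr1:209825771-209826249 on the minus strand, had 117 sites with 1.25% of 3433 counts unconverted and none in MDA-MB-468. The interval chr5:107006698-107007329 had 142 sites with 2.28% in MCF10A and 29 sites with no unconverted read among 310 in MDA-MB-468. In MDA-MB-468 the interval chr17:41400266-41401125, behind TMEM106A by 28205 nt, had 176 sites with 1.42% of 4376 counts, and in MCF10A it had 17 sites with 1.14% of 176. The interval chr7:54813825-54814886, which lies 5057 nt behind SEC61G, a translocon subunit gene, had 113 sites with 1.28% of 1716 counts in MDA-MB-468 and none in MCF10A. None of these 4 intervals had a called site in MDA-MB-468, and 1 of them, on chromosome 5, had 2 in MCF10A.

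Remaining sites gathered in some regions, of which part were covered in both libraries. The region with the most sites of MDA-MB-468, the megabase from 1000000 on chromosome 1, held 767 (7.83%) there and 44 (1.49%) in MCF10A. The megabase from 57000000 on chromosome 19 held 241 (8.16%) in MCF10A versus 211 (2.15%) in MDA-MB-468. In MCF10A 328 of them (11.1%) lay in the megabase from 238000000 on chromosome 2, which holds COL6A3, MLPH and LRRFIP1, and MDA-MB-468 had none there. In MDA-MB-468 491 (5.01%) lay in the megabase from 5000000 on chromosome 7 with ACTB, and 489 (4.99%) in the megabase from 69000000 on chromosome 11 with CCND1 and MYEOV, and MCF10A had none in either. The rates of these last 3 regions were 1.24%, 2.17% and 1.01%.

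The order of the contexts differed between ribosomal and remaining intervals when remote sites were included. On ribosomal intervals cytosines followed by G (CG) had a rate of 2.83% in MCF10A versus 1.92% in MDA-MB-468, against 2.16% and 1.58% in other contexts. Exons had the same order, with 2.25% and 2.13% at CG and 1.88% and 1.69% elsewhere. Over the remaining intervals CG had 3.08% and 2.88%, CHG 2.40% and 2.33%, and CHH 5.79% and 6.37%, where H is any base but G. A cytosine in a stretch without G counts as CHH by definition. Of the 30 remaining intervals with a site of at least 90%, 29 held no G, so their unconverted reads count mostly as CHH. The part of these intervals in the order of the contexts was not tested. At downstream sites of these intervals CG was highest, as on ribosomal intervals, with CG at 1.74%, CHG at 1.59% and CHH at 1.42% in MCF10A, and 2.55%, 1.98% and 2.12% in MDA-MB-468.

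Gene-free reads came almost always from 1 strand. A site with a coverage of at least 10 on the other strand within 200 nt was found for 2 of 2372 downstream and 8 of 2392 remote sites in MCF10A, and for 21 of 6990 and 58 of 4999 in MDA-MB-468. The shares were 0.0843% (0.0231 to 0.307) and 0.334% (0.170 to 0.659) in MCF10A, and 0.300% (0.197 to 0.459) and 1.16% (0.899 to 1.50) in MDA-MB-468. Exonic sites had 0.528% and 0.959%. None of the 1294 and 1600 ribosomal sites had one, which allows a share of up to 0.296% and 0.240% by the Wilson interval.

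The 200 nt that follow an interval held the hexamer AATAAA, the main signal for poly(A) addition, in the following shares. It was found on the strand of the interval after 5 of 71 remaining downstream intervals in MCF10A (7.04%, 3.05 to 15.4) versus 15 of 310 in MDA-MB-468 (4.84%, 2.95 to 7.83). It was found after 4 of 93 (4.30%) and 17 of 273 (6.23%) remote intervals. Of 10850712 gene-free windows of 200 nt, counted on both strands, 19.1% held it. A run of 8 A (AAAAAAAA) followed 2 of 93 and 9 of 273 remote intervals and 0 of 71 and 5 of 310 downstream intervals, against 5.80% of all windows. No test was made of these shares, and intervals with covered cytosines differ in base composition from gene-free sequence.

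The libraries shared 2249 gene-free sites, 47.2% of those of MCF10A and 18.8% of those of MDA-MB-468. Over all nuclear sites 50.8% of those of MCF10A and 55.1% of those of MDA-MB-468 were shared. All 1294 ribosomal sites of MCF10A were shared, but only 698 of the remaining ones, which are 23.6% of those of MCF10A and 7.12% of those of MDA-MB-468. Across the shared sites, the ratios of the libraries had a Pearson r of 0.914 and a Spearman rho of 0.529, as a description over sites that share reads with their neighbours. On ribosomal sites r was 0.894 and rho 0.660, and on remaining sites r was 0.952 and rho 0.390. Of the shared sites 263 were called in both lines, 83.5% of the 315 called in MCF10A and 76.0% of the 346 called in MDA-MB-468. Of these 263, 224 were ribosomal and 39 were remaining sites. The same overlap of calls over all shared nuclear sites was not taken, so whether it is particular to gene-free sites was not tested.

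**Figure D5:**
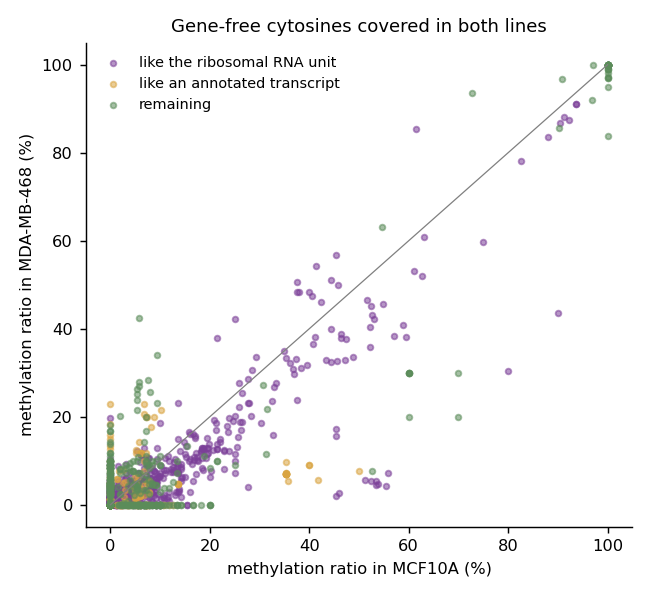
Each point is a gene-free cytosine covered in both libraries, placed by its methylation ratio (percent) in MCF10A and MDA-MB-468 and coloured by the kind of interval; the line marks equal ratios. Most sites lie near 0 in both, a chain of ribosomal sites runs along the line and the 6 chromosome 21 sites with the largest differences, at 52.3% to 55.8% in MCF10A, stand at 7.19% or less in MDA-MB-468.

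Single gene-free cytosines were also compared between the libraries. A two-sided Fisher's exact test with Benjamini-Hochberg adjustment over 836347 shared nuclear sites called 0.0158% of them higher in MDA-MB-468 and 0.0784% lower. Of the 2249 gene-free sites 53 (2.36%) were called. Of these, 52 were lower in MDA-MB-468 and all 52 lay on ribosomal intervals. The interval behind MIR3648 held 34 of them, and AC136932.1 had 6 behind it. The median size of the 53 differences was 1.21 percentage points, and 15 were over 10 points. The other called site was higher in MDA-MB-468 and lay on a remaining interval. Ribosomal coverage was far greater in MDA-MB-468, with a median of 667 over the shared sites against 140 in MCF10A, and depth sets how small a difference the test can call. After thinning each site to the lower of its coverages, 27 gene-free sites were called. The test compares the reads of 2 libraries, not the lines.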

How the data were processed

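RNA of each line was selected for poly(A) tails, bisulfite-treated and sequenced, and the authors trimmed reads with Trim Galore and aligned and called them with MeRanTK, whereas the submitters' processing notes name Bismark and hg19. The deposited values are raw read counts per cytosine, unconverted and converted, listed from a coverage of 5. From these counts, sites with a coverage of at least 10 were placed by GENCODE GRCh37 gene spans. Members, groupings and gene lists were chosen with earlier results of these data known. Sites of a strand were joined over gaps of at most 100 nt, and intervals with 20 nt on each side were aligned with BLAST+ 2.17.0. A ribosomal match needed 80% identity over 60% of the sequence, within 8000 nt of an annotated 5.8S gene on an unplaced scaffold, and a transcript match needed 90% over 80%. Pairing was predicted with ViennaRNA 2.7.2 (window 300 nt, distance 150 nt, 70 degrees). Python 3.11.15, numpy 2.4.6, scipy 1.17.1 and pandas 2.3.3 were used.

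Calling compared each site with the pooled rate of exonic and mitochondrial sites (1.99% in MCF10A, 1.81% in MDA-MB-468) by Fisher's exact test, one-sided, and shared sites were compared between libraries by the two-sided form, both adjusted by Benjamini-Hochberg at 0.05. Scripts were tested on simulated data. Error intervals are 95% Wilson intervals and cover counting error only, because PCR reads are not independent molecules. The genes named by rule were the 8 flanking genes with the most counts per line. Intervals named by rule were the 5 remote ones with the most counts and the 3 with the most calls per line. Sites named by rule were the 4 deepest called sites with a ratio of at least 0.2 in each class and line, the 6 deepest called in both lines and the 6 largest differences. The division by ribosomal and transcript match, the intervals with sites of at least 90%, and every other gene, interval and site named were chosen after their values were seen. Some members of the named lists and some sites are not reported here.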

Additional observations from a re-analysis of the deposited data

How the results depend on the processing

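No paired analysis was possible because each line had 1 library. Alternatives that left out ribosomal intervals, transcript-like intervals or intervals with a site of at least 90% were chosen after seeing the data. Of the alternatives, 27 values stayed within the counting interval of the main value, for rates and shares, or within 1.5 times of it, for counts, 46 moved further and 2 reversed, and the cause was not tested. A coverage of at least 20 left 1959 gene-free sites in MCF10A versus 3511 in MDA-MB-468, of which 1164 and 2116 were downstream, and gave a remote rate of 2.77% in MCF10A. Gene spans of protein-coding and long noncoding genes alone gave 16295 and 22747 gene-free sites, and a window of 1000 nt gave 1161 and 3315 downstream sites. The mean of site ratios was 3.87% downstream and 5.33% remote in MCF10A, and 2.33% and 4.40% in MDA-MB-468. Without sites of pairing probability over 0.5 these rates were 1.58%, 3.29%, 1.16% and 2.77%. Without ribosomal intervals they were 1.93%, 5.53%, 2.29% and 7.70%, with 1449 downstream sites in MCF10A, and without intervals of at least 90% as well they were 1.93% downstream in MCF10A, and 2.14% downstream and 2.84% remote in MDA-MB-468. The 363 and 518 calls became 220 and 285 at a ratio of at least 0.2, 86 and 172 without paired sites, 20 and 38 without a called neighbour within 10 nt, and 116 and 227 without ribosomal intervals. The rate at CG minus that elsewhere was 0.604 percentage points in MCF10A versus 0.310 in MDA-MB-468. It reversed to -1.29 and -2.04 without ribosomal intervals, and was 0.198 in MDA-MB-468 over the mean of ratios. The reversed values still include the intervals without G, whose cytosines count mostly as CHH. Coverage on both strands within 50 nt was 0% downstream and 0.0418% remote in MCF10A, and 0.0858% and 0.0200% in MDA-MB-468. Within 1000 nt it was 1.10%, 1.46%, 3.81% and 5.20%, and without ribosomal and transcript-like intervals it was 0.0588% for remote sites of MCF10A. Without the interval with the most unconverted reads, also chosen after seeing the data, the rate of remaining downstream sites went from 1.50% to 1.46% in MCF10A, and from 2.12% to 1.61% in MDA-MB-468. Differential sites fell from 53 to 27 after thinning to the lower coverage and to 1 without ribosomal intervals. Leaving out repeat-masked bases was not run, since the reference used here carries no masking.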
